A study of Mus musculus with 912 samples.

Results

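Dentate granule (DG) nuclei were those whose labels gave the predicted cell type DG in the home cage and 1 h experiment and in which at least 4000 genes exceeded 1 in log2(TPM+1), the base-2 logarithm of relative transcript abundance (TPM) plus 1. Of 83 nuclei labelled DG, 79 met that threshold, out of 912 nuclei in the whole series. The nuclei came from the hippocampus of wild-type female C57BL6 mice that had stayed in the home cage (HC) or had been killed 1 h after exposure to an unfamiliar environment (NE). Nuclei had been sorted by NEUN, PROX1, CTIP2 and FOS protein and each was made into its own library by Smart-seq2, so no cell barcodes were shared. A single NE mouse, called 1h-3 here, gave 53 of the 79 nuclei, 26 of them FOS+ and 27 FOS-. The remaining nuclei were FOS- nuclei of HC mice, with 19 from HC-6, 5 from HC-7 and 1 each from HC-3 and HC-5. The labelled ages were 8.7 weeks for 1h-3, 7.75 weeks for HC-6, 8.57 weeks for HC-7, 8.7 weeks for HC-3 and 8.875 weeks for HC-5. The mice whose CA1, CA3, Sub and VIP nuclei were compared with them were 8.7 to 9.0 weeks old.

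Granule cells are the glutamatergic principal cells of the dentate gyrus. They receive the perforant path from the entorhinal cortex and send mossy fibres, which carry glutamate together with zinc and opioid peptides, to CA3 and the hilus. The transcription factor PROX1 sets and maintains their identity. Few of them fire during any experience, and the FOS+ nuclei of the NE mouse are taken from that sparse active group.

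Identity was described from FOS- nuclei, which left 52 DG, 40 CA1, 13 CA3, 22 subiculum (Sub) and 39 VIP interneuron nuclei after the filters of the study, including the removal of FOS- nuclei with Arc above 2.5. Counts were summed by mouse and type where at least 2 nuclei entered, which gave 3 DG, 6 CA1, 3 CA3, 5 Sub and 6 VIP mice. The 79 DG nuclei held between 156591 and 2594899 expected counts each. The PROX1+CTIP2+ gate held 80 of the 83 nuclei labelled DG and 0 of the 103 CA1, 27 CA3, 38 Sub and 80 VIP nuclei, and no mouse that gave DG sums gave sums of another type, nor did nuclei whose sample names share its prefix in the labels, so gate, name prefix, mouse and DG identity cannot be told apart. The gate used PROX1 and CTIP2 protein. Per the study's methods, the authors clustered nuclei by expression, named the clusters from prior knowledge, and refined them with a classifier of 51 genes. Prox1 and C1ql2 are among those 51 genes, whose levels are a description with no test. Since the labels came from the same expression values, no gene is fully independent of them.

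A nucleus of HC-3, sorted as PROX1-CTIP2+ but labelled DG, went against its label. Its Prox1 level was 0.38 in log2(TPM+1), C1ql2 and Calb1 were at 0, and Cntnap5c, which was not detected in any other DG nucleus, stood at 8.18. It held 5 of 20 granule cell markers above 1, and was in none of the sums. The nucleus of HC-5, sorted as PROX1+CTIP2-, held 13 of the 20, with Prox1 at 5.01 and C1ql2 at 8.49. A nucleus of HC-4a labelled CA1 also held 13 of the 20, with C1ql2 at 5.20 and Calb1 at 7.00 beside Sv2b at 3.67 and 2610203C20Rik at 6.69, genes detected in 2 and 0 of the 52 DG nuclei, and results that move without it are given in the closing limits.

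The markers of the label were present. Prox1 had mean levels of 5.15 in 1h-3, 5.18 in HC-6 and 5.45 in HC-7, and exceeded 1 in 46 of the 52 DG, 1 CA1, 0 CA3, 0 Sub and 26 of the 39 VIP nuclei. C1ql2, a secreted organizer of mossy fibre synapses, had mean levels of 6.79, 4.02 and 6.57 in the same mice and was detected in 40 of 52 DG nuclei against 4 CA1, 0 CA3, 1 Sub and 0 VIP nuclei. Bcl11b, the gene of CTIP2, was less specific, with DG means of 2.51, 3.81 and 3.78 and other mice up to 2.70. All 3 exceeded 1 together in 22 of the 52 DG nuclei, in 1 CA1 nucleus and in 0 CA3, Sub or VIP nuclei. A count of 0 nuclei allows a share of up to 5.77% of the 52 DG, 7.5% of the 40 CA1, 23.1% of the 13 CA3, 13.6% of the 22 Sub and 7.69% of the 39 VIP nuclei, for counting error only.

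The 20 granule cell markers were then read as a group. Against the mean of the 4 other types, 11 of the 20 passed the threshold of 0.05 on the adjusted p and were higher in DG, 0 were lower, and 9 did not pass. DESeq2 called 16 of them, limma on mean log2(TPM+1) 17 of 19, and limma voom with the mouse as a block 19. Over all genes tested, DESeq2 called 679 and limma voom 2060 of 16709, and limma on mean log2(TPM+1) 144 of 15397. The 20 sums of the other types came from 10 mice, 5 of which gave sums of several types. Over all 16709 genes tested, 107 were higher, a share of 0.64%, and 24 were lower, a share of 0.144%. The test was edgeR's quasi-likelihood test with Benjamini-Hochberg adjustment, and all adjusted p-values of the comparisons between types come from it. The median log2 fold change of the 20 was 5.84, against 0.066 for all genes. With types at 0 counts set to a floor of 3 summed counts the medians were 5.29 and 0.027. The 11 include the classifier genes Prox1, C1ql2 and Rfx3, which helped to choose the nuclei. Of the 14 markers that neither the sort nor the classifier had used, 8 passed. Of the 14, 6 had DG mice that did not overlap any of the 20 means of other types and mice. Over all genes compared, 55 of 15774 were higher in DG without overlap. These 14 are not independent of the labels either, which came from clustering on the same expression values.

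**Figure D1:**
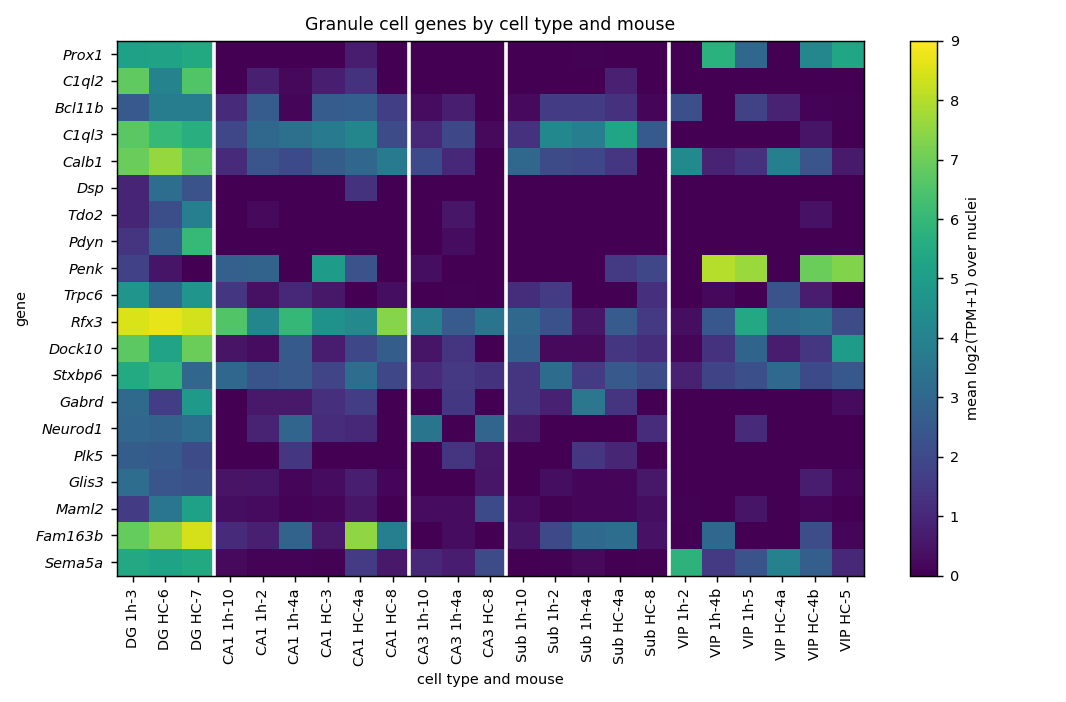
Mean log2(TPM+1) over FOS- nuclei for the 20 granule cell markers (rows), by cell type and mouse (columns, with white lines between types). Prox1 lies between 5.15 and 5.45 in the DG columns and reaches 5.75 in a VIP column, and Penk is highest in VIP columns.

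Among the 14, Glis3, a zinc finger transcription factor, had DG means of 3.21, 2.39 and 2.22 in 1h-3, HC-6 and HC-7, and the other means reached 0.74. The groups did not overlap, and the log2 fold change against the mean of the types was 7.13 ± 0.96 (adjusted p = 0.000439). Here and below, the value after ± is the fold change divided by the square root of the test's F statistic. It is a scale taken from the test and no separately estimated standard error. Where a type had counts near 0 it does not measure the spread of the fold change. Trpc6, a calcium-permeable cation channel, had DG means of 4.71, 3.08 and 4.71 against at most 2.31 elsewhere, with a log2 fold change of 6.78 ± 1.41 (adjusted p = 0.0198, and 0.0634 without 1h-3, 0.0714 without 1h-4a, 0.097 without HC-8 and 0.1 without 1h-10). Tdo2, which encodes the tryptophan dioxygenase of the kynurenine pathway, had DG means of 0.93, 2.15 and 3.87 and at most 0.55 in the others (log2 fold change 9.63 ± 1.30, adjusted p = 0.000978).

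Maml2, a coactivator of Notch signalling, differed widely among the DG mice, with 1.55 in 1h-3, 3.53 in HC-6 and 5.15 in HC-7, and its lowest DG mean was under the 2.01 of a CA3 mouse (log2 fold change 6.52 ± 0.96, adjusted p = 0.000978). Sema5a, a semaphorin, was even among DG mice, at 5.42, 5.24 and 5.48, but VIP means reached 5.83 (log2 fold change 5.78 ± 0.92, adjusted p = 0.00202). Stxbp6, a SNARE-binding protein, had 5.50, 5.88 and 2.97 (adjusted p = 0.0093, 0.0709 without HC-6 and 0.0549 without 1h-10). Fam163b had 6.88, 7.52 and 8.41 against up to 7.51 in a CA1 mouse, and its adjusted p of 0.043 rose above the threshold without 1h-2, 1h-4a, 1h-10 or any 1 DG mouse, and most, to 0.129, without HC-8.

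Pdyn, the eighth of the 14 to pass, is described with the genes of largest fold change. The other 6 of the 14 did not pass. C1ql3, a relative of C1ql2, had DG means of 6.71, 6.01 and 5.69, above every other mean, which reached 5.32 (adjusted p = 0.0787). Gabrd, the delta subunit of extrasynaptic GABA-A receptors, had 3.10, 1.63 and 4.86 and overlapped the other mice (adjusted p = 0.0699). Dsp, which encodes the junction protein desmoplakin, had 0.93, 3.24 and 2.31 (adjusted p = 0.0755). Neurod1, a proneural transcription factor, had 2.97, 2.86 and 3.25 (adjusted p = 0.37), and Plk5, a polo-like kinase, had 2.67, 2.56 and 2.05 (adjusted p = 0.134). Of these, C1ql3, Gabrd, Dsp and Plk5 passed under 5, 5, 7 and 6 of 28 alternatives. Penk, the enkephalin precursor, was no granule cell marker here: its DG means were 1.78, 0.52 and 0.00 and its mean over VIP mice was 4.99 (adjusted p = 0.932).

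The classifier genes of the list are given as levels. Rfx3, a winged-helix transcription factor, was the most even of them, with 8.50, 8.67 and 8.40 in DG and 0.33 to 7.36 elsewhere, and it was above 1 in 51 of 52 DG nuclei. Calb1, which encodes the calcium buffer calbindin, had 6.94, 7.59 and 6.70 in DG and at most 4.27 in the other mice. Dock10, an activator of small GTPases, had 6.73, 5.26 and 6.98 and at most 4.92.

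The promoters of Prox1 and Rfx3, which mark the nuclei, and of Meg3, which was low in them, are shown to give the sequence at the start of these genes. The windows span 250 bases before to 50 after the start in RefSeq (GRCm38.p6), at chr1:190170778-190171077 on the minus strand for Prox1, chr19:28011117-28011416 on the minus strand for Rfx3 and chr12:109540746-109541045 on the plus strand for Meg3. Capitals mark the E-box CAGATG that NEUROD factors bind in Prox1, the RFX core GTTGCC in Rfx3 and the cAMP response element TGACGTCA in Meg3. For each gene the window shown is that of the first listed start that held the motif, so its presence was fixed in advance. Prox1 and Meg3 each have 2 listed starts.
Prox1: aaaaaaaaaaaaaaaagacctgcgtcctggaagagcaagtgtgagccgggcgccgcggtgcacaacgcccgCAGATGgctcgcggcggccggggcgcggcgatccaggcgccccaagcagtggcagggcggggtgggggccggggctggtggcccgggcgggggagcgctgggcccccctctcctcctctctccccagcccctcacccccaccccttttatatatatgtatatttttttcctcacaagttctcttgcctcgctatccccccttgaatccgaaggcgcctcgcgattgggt
Rfx3: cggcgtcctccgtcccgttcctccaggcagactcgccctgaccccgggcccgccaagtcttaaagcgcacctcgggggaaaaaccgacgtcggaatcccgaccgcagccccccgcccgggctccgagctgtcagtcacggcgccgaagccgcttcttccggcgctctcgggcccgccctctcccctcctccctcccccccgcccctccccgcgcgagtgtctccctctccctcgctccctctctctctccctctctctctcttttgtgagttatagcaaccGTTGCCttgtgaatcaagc
Meg3: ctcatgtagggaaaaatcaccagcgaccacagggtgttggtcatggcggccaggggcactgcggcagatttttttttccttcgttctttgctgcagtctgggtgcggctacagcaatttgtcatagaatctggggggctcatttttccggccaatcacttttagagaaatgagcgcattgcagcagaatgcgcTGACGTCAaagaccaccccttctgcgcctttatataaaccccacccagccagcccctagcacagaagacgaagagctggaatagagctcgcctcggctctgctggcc
Searched on both strands, CAGATG stood in 17.2% of 32851 RefSeq promoters and in those of 3 of the 17 granule cell marker genes with a promoter in the table (Prox1, Dock10 and Maml2). Counted by promoter, CAGATG stood in 4 of the 21 of these genes. GTTGCC stood in 12.5% of all promoters and in those of 1 of the 17 genes, and TGACGTCA in 1.79% and in those of 0 of the 17. These matches describe the letters and are no evidence of binding.

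Over all genes, the 10 with the largest fold change among those higher in DG whose mice did not overlap the others were Pdyn, Ogn, Arsj, Mfsd2a, Dclk3, Gdf10, Plcg2, C1ql2, Cdhr1 and Capn3, of which Pdyn and C1ql2 are on the marker list. Of the 107 higher genes 27 did not overlap, and of the 24 lower genes 16 did not. Over all 15774 genes compared, 55 were higher and 68 lower without overlap. Where a type had 0 summed counts the fitted fold change is no bound, so fold values against 3 counts over that type are given. These values take reads as independent draws. They cover neither the spread between nuclei nor that between mice, so they are no lower bounds. Most of these genes were detected in a minority of DG nuclei.

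Pdyn, the precursor of the opioid peptide dynorphin, which mossy fibres release, had means of 1.40 in 1h-3, 2.74 in HC-6 and 6.03 in HC-7. It was above 1 in 19 of 52 DG nuclei and in 1 CA3 nucleus of all the others. Set against 3 counts in each of CA1, Sub and VIP, its 6302 summed DG counts were 1462-fold higher, relative to all counts, than in CA1. The values were 566-fold for Sub and 725-fold for VIP (adjusted p = 0.00363 against the mean). The gene lies at chr2:129686565-129699844 on the minus strand (GRCm38).

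Ogn, which encodes the proteoglycan osteoglycin, had 3744 counts in DG and 0 in each of the other types. Its DG means were 1.39, 1.20 and 2.89, from 11 of 52 nuclei (adjusted p = 0.0185, and 0.0610 to 0.0663 without any 1 of the DG mice). Set against 3 counts, it was 868-fold higher than in CA1 and 307-fold higher than in CA3. By nuclei, a count of 0 of 13 in CA3 allows a share of up to 23.1%, above the 21.2% of DG nuclei. Mfsd2a, a transporter of lysophospholipids that carry omega-3 fatty acids, was detected in 24 of 52 DG nuclei, with means of 2.54, 1.36 and 2.30, and in 1 other nucleus (adjusted p = 0.00118, and 0.0504 without 1h-4a). Capn3, a calcium-dependent protease, was the most even of the 10, at 2.80, 2.83 and 2.99 from 21 of 52 nuclei (log2 fold change 9.85 ± 1.53, adjusted p = 0.00473).

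Arsj, an arylsulfatase, was highest in HC-7, with 0.26, 0.52 and 2.44 (adjusted p = 0.000766). Dclk3, a kinase of the doublecortin-like family, had 0.43, 0.58 and 1.64 (adjusted p = 0.00427). Plcg2, a phospholipase C, had 0.59, 0.70 and 2.49 (adjusted p = 0.00715). Cdhr1, a cadherin relative, had 0.43, 0.47 and 1.74 (adjusted p = 0.00684, 0.0749 without 1h-10 and 0.0549 without HC-7). In each of these 4, HC-7, with 5 nuclei, gave the highest mean, from 2, 1, 2 and 1 of those nuclei in the order named. Over the 52 DG nuclei, Arsj was above 1 in 6, Dclk3 in 6, Plcg2 in 8 and Cdhr1 in 7. Gdf10, a ligand of the TGF-beta family, had 1.23, 0.55 and 1.52 from 8 nuclei (adjusted p = 0.00182).

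**Figure D2:**
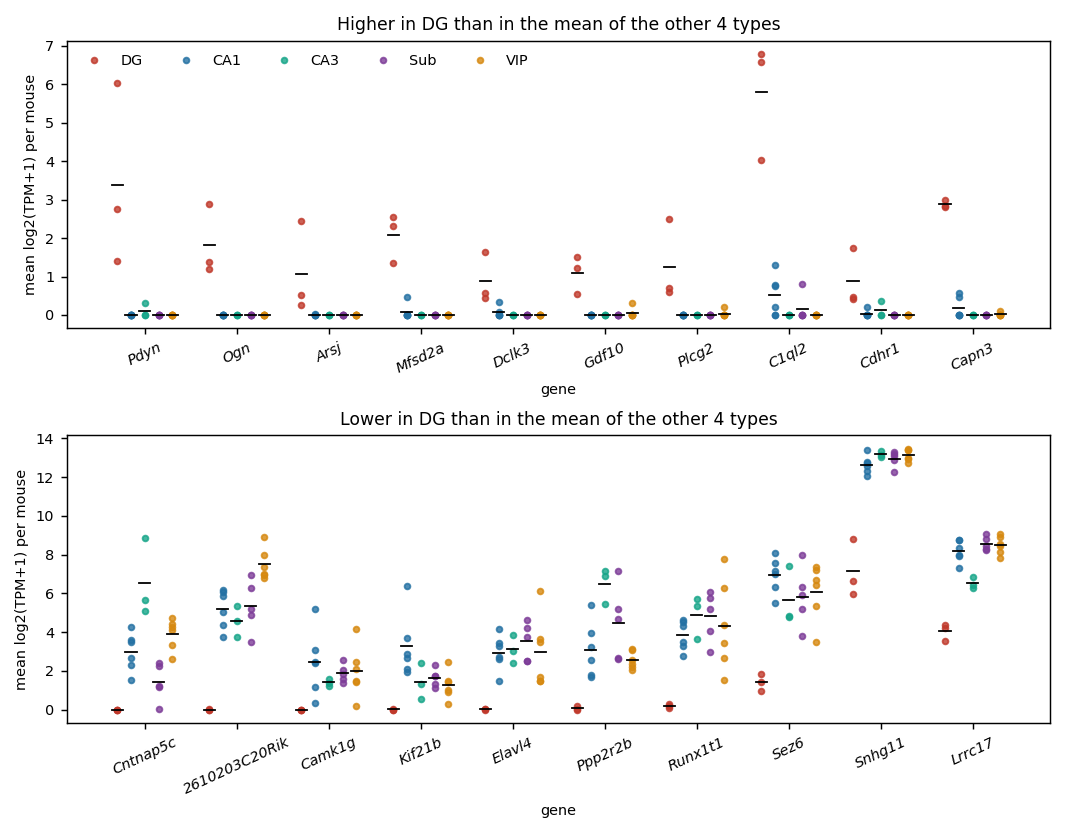
Mean log2(TPM+1) per mouse (points) and mean over mice (bars) for the 10 genes highest (top) and 10 lowest (bottom) in DG against the mean of CA1, CA3, Sub and VIP. Ogn is at 0 in every non-DG mouse, and 2610203C20Rik lies at 3.52 to 8.90 in non-DG mice and at 0.03 or below in DG.

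The lower genes included some at or near 0 in DG nuclei. 2610203C20Rik, the long non-coding RNA Mir100hg in RefSeq, had means of 0.03, 0.00 and 0.00 in the 3 DG mice and 3.52 to 8.90 in the other 20 means. It exceeded 1 in 0 of the 52 DG, 34 of 40 CA1, 11 of 13 CA3, 19 of 22 Sub and 39 of 39 VIP nuclei. Summed counts were 2 in DG against 6568 in CA1, 2239 in CA3, 4025 in Sub and 13338 in VIP. The log2 fold change against the mean was -12.34 ± 1.07 (adjusted p = 1.12e-06). The off-gate nucleus of HC-5 also had 0.

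Mir100hg spans chr9:41376526-41615185 (GRCm38.p6) and holds 3 miRNA hairpins. RefSeq places 5 mature miRNAs inside it, which were not measured here. Smart-seq2 does not mark strand, so reads from a gene antisense to it cannot be told apart. These 5 mature sequences are shown with the seed, bases 2 to 8, in capitals, and the 5 seeds differ from each other. The list need not be complete: a mature miRNA whose listed position lies elsewhere is missing from it. The sequence let-7a-2-3p stands there without a 5p partner.
miR-100-5p: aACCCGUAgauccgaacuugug
miR-100-3p: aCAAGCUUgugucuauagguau
let-7a-2-3p: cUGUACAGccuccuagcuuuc
miR-125b-5p: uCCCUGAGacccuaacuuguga
miR-125b-1-3p: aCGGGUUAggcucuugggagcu

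Elavl4, which encodes the neuronal RNA-binding protein HuD, had DG means of 0.03, 0.01 and 0.00 and 1.47 to 6.13 elsewhere. The groups did not overlap (log2 fold change -10.03 ± 1.23, adjusted p = 0.000194). Kif21b, a kinesin, had 0.05, 0.00 and 0.00 and was at 0.28 or more in the other means (adjusted p = 0.0166, and 0.0709 to 0.0967 without any 1 of the DG mice). Ppp2r2b, a regulatory subunit of protein phosphatase PP2A, had 0.06, 0.20 and 0.00 against 1.67 or more (adjusted p = 0.0115, 0.0631 without 1h-3 and 0.0579 without HC-7). Camk1g, a calmodulin-dependent kinase, was at 0.00 in all 3 DG mice, and its adjusted p of 0.0454 lay above the threshold without any 1 of the DG mice, 1h-4a, 1h-5, 1h-10, HC-3, HC-5 or HC-8, and was highest, at 0.145, without 1h-3.

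Among the 10 genes of largest fold change lower in DG without overlap, Cntnap5c, Runx1t1, Sez6, Snhg11 and Lrrc17 were classifier genes. In all, 10 of the 51 classifier genes were lower against the mean. Cntnap5c, a neurexin-family adhesion protein, had 0 summed counts in DG. Set against 3 counts in DG, it was 7133-fold lower than in CA1 and 16462-fold lower than in CA3. The off-gate nucleus of HC-3 was the 1 DG nucleus that held it. Runx1t1, a transcriptional corepressor, had 0.30, 0.09 and 0.18 against 1.53 or more. Sez6, a dendritic membrane protein, was present but low, at 1.43, 1.86 and 0.95 and in 29 of 52 nuclei, against 3.49 or more. Lrrc17, a leucine-rich repeat protein, had 4.36, 3.53 and 4.24 against 6.29 or more.

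Of 9 nuclear long non-coding RNAs tested on a list of 10, 3 were lower in DG in each of the 5 comparisons and 0 were higher. Among all genes tested, 0.144% were lower against the mean, and 0.0718% to 0.215% against the single types. Rian, at chr12:109603940-109661716 in the imprinted Dlk1-Dio3 region, had 6.28, 3.85 and 6.25 against 8.12 to 10.79 (log2 fold change -2.76 ± 0.36, adjusted p = 0.000296). Its neighbour Meg3, at chr12:109541001-109571726, is a classifier gene and had 9.57, 8.95 and 7.83 against 11.26 to 13.11. Snhg11, also a classifier gene, had 8.83, 5.98 and 6.66 against 12.05 to 13.48. The off-gate nucleus of HC-5 had Snhg11 at 10.00 and Meg3 at 11.28, nearer to the other types than the DG means. Malat1, the most abundant of the list, had 16.59, 16.88 and 16.56 within the 16.21 to 17.95 of the others (adjusted p = 0.596). Mirg, further along the same region as Meg3, had 1.75, 0.41 and 0.20 against 1.86 to 7.11, without overlap, and did not pass (adjusted p = 0.328).

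Restricting the fit to HC mice, which left HC-6 and HC-7, called 4 genes against the mean. They were 2610203C20Rik lower and the classifier genes Meg3 and Snhg11, lower, and Rfx3, higher, so the other calls on named genes were lost. DESeq2 called 296 genes higher and 383 lower where edgeR called 107 and 24.

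Each type was then compared with DG on its own. Against CA1, 17 genes were higher (0.102%) and 19 lower (0.114%). The largest differences among those without overlap were Gdf10, Arsj, Ptchd4 and Mfsd2a, higher, and Cntnap5c, 2610203C20Rik, Kif21b and Sv2b, lower. Ptchd4, a classifier gene of the patched family, had DG means of 4.51, 2.91 and 3.43, a CA1 mean of 0.05 over mice and a Sub mean of 3.25. Sv2b, the synaptic vesicle protein of most glutamatergic neurons and a classifier gene, had DG means of 0.00, 0.11 and 0.00 and was detected in 2 of 52 DG nuclei against 37 of 40 CA1, 12 of 13 CA3, 21 of 22 Sub and 1 of 39 VIP nuclei. Of the 2 DG nuclei with Sv2b, 1 was the off-gate nucleus of HC-3, at 6.66. C1ql2 was 5.39-fold higher than in CA1 by summed counts, of which CA1 held 2900.

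Against CA3, 0 genes were higher (0.0%) and 12 lower (0.0718%) by edgeR. At an unadjusted p under 0.05, 1294 genes passed in either direction, DESeq2 called 483 genes higher, limma on mean log2(TPM+1) called 57 and limma voom 142. CA3 had 3 mice and 12 nuclei in the sums. The lower genes named were Cntnap5c, Sv2b, 2610203C20Rik and Spink8, a protease inhibitor typical of CA1. Spink8 was above 1 in 2 of 52 DG, 26 of 40 CA1 and 5 of 13 CA3 nuclei (log2 fold change -9.77 ± 1.68 against CA3, adjusted p = 0.0148). Of the 2 DG nuclei with Spink8, 1 was the off-gate nucleus of HC-3, at 5.24.

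Against Sub, 18 genes were higher (0.108%) and 20 lower (0.12%). The higher genes named were Tdo2, Mfsd2a, Arsj and Glo1. Glo1, the enzyme glyoxalase that clears methylglyoxal, had 2.81, 4.53 and 4.73 in DG and a mean of 0.06 over Sub mice (log2 fold change 11.12 ± 2.29, adjusted p = 0.0436), while its CA1 mean was 2.17 (adjusted p = 0.912). Lower were Cntnap5c, 2610203C20Rik, Sv2b and Sel1l3, the last with DG means of 0.04, 0.00 and 0.00 (adjusted p = 0.0467).

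Against VIP, 98 genes were higher (0.587%) and 36 lower (0.215%). Nrn1, the secreted plasticity protein neuritin, had DG means of 7.89, 7.14 and 6.93 from 49 of 52 nuclei and was in 0 of 39 VIP nuclei (adjusted p = 0.000763). Ano3, of the anoctamin family, had 6.68, 7.66 and 7.29 and a VIP mean of 0.02 (log2 fold change 12.75 ± 1.24, adjusted p = 3.96e-06). Both genes were also present in CA1, CA3 and Sub nuclei. C1ql2 and Pdyn completed the higher genes (adjusted p = 0.0307 for Pdyn). Lower were Htr3a, a serotonin receptor subunit with 0 counts in DG, the neuregulin receptor Erbb4, Cntnap5c and 2610203C20Rik, of which Htr3a and Erbb4 are classifier genes.

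Gene lists were then read by role, beside shares of 0.64% higher and 0.144% lower among all 16709 genes tested by edgeR against the mean. Of 38 transcription factors tested on a list of 39, 4 were higher than the mean of the types and 0 lower: Prox1, Rfx3, Glis3 and Emx2. Prox1, used in the sort and the classifier, and Rfx3, used in the classifier, helped to choose the nuclei and are no independent evidence. No gene of the list is fully independent, since clustering on expression also set the labels. Emx2, a homeobox factor of the developing hippocampus, had 0.33, 0.40 and 3.10 and was detected in 6 of 52 nuclei (log2 fold change 8.17 ± 1.07, adjusted p = 0.00115). The HC-7 mean lay far above the other DG mice.

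Of 23 genes of mossy fibre release, 5 were higher and 1, Sv2b, was lower. The higher ones were Pdyn, C1ql2, Sv2c, Bdnf and Gad1. Sv2c, another vesicle protein of the Sv2 family, had 1.62, 2.38 and 2.90 and other means up to 2.82 (log2 fold change 6.89 ± 1.42, adjusted p = 0.0191). Bdnf, the neurotrophin that mossy fibres store, had 3.55, 6.02 and 5.06 against at most 3.05 in the others, without overlap (log2 fold change 5.25 ± 0.83, adjusted p = 0.00198). Gad1, a GABA-synthesizing enzyme and a classifier gene, had 3.47, 2.56 and 1.37 from 23 of 52 nuclei, against CA1 and CA3 means of 0.17 and a VIP mean of 6.54. The vesicular transporters did not separate DG from pyramidal types: Slc17a7 had 7.90, 7.48 and 6.61 beside a CA1 mean of 7.25, and Slc32a1, the GABA transporter, was at 0.00 in all 3 DG mice. Slc30a3, the zinc transporter of synaptic vesicles, had 7.37, 7.22 and 8.25 against at most 7.45 (adjusted p = 0.368).

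Receptors and channels followed. Of 15 GABA receptor genes 1 was higher, Gabra5, with 4.82, 4.67 and 5.71 beside a CA3 mean of 6.25 and a VIP mean of 0.32 (log2 fold change 3.04 ± 0.65, adjusted p = 0.0254). Of 20 glutamate receptor genes 1 was higher, Grm2, the presynaptic metabotropic receptor of mossy fibres, with 6.49, 5.54 and 5.98 and detection in 43 of 52 DG, 4 of 40 CA1, 0 of 13 CA3, 13 of 22 Sub and 6 of 39 VIP nuclei (log2 fold change 5.84 ± 1.29, adjusted p = 0.0324). Of 37 ion channel genes 2 were higher, Trpc6 and the potassium channel Kcnk2, whose means were 1.00, 0.46 and 1.60 (adjusted p = 0.043). For the GABA receptor, glutamate receptor and ion channel lists, in that order, 7, 3 and 10 genes had an unadjusted p under 0.05 by edgeR, DESeq2 called 5, 3 and 5, limma on mean log2(TPM+1) 1, 2 and 2, and limma voom 7, 4 and 14. Of 18 modulatory receptors tested, 0 passed by edgeR and 6 had an unadjusted p under 0.05. DESeq2 called 5 of these 18, limma on mean log2(TPM+1) 1 and limma voom 7. Over all 16709 genes, 1873 had an unadjusted p under 0.05 by edgeR, DESeq2 called 679 and limma voom 2060. Limma on mean log2(TPM+1) called 144 of 15397 genes.

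Of 19 calcium handling genes 1 was higher, Camk2b, a subunit of calmodulin-dependent kinase II, with 7.62, 7.63 and 9.54 (log2 fold change 1.50 ± 0.30, adjusted p = 0.0159). Its level in CA3 mice averaged 8.33. Of 52 adhesion and guidance genes 1 was higher, Sema5a, and 2 were lower, Cntnap5c and the teneurin Tenm4, a classifier gene with 1.62, 0.66 and 1.44. Lct, whose product is the disaccharidase lactase and which marks part of the dentate gyrus along its long axis, had 1.62, 1.83 and 1.32 and was detected in 15 of 52 DG and 10 of 40 CA1 nuclei (log2 fold change 7.17 ± 1.49, adjusted p = 0.033).

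Of the other types' markers, 1 of 8 CA1 genes passed against the mean by edgeR, Spink8, lower in DG, and 1 of 13 interneuron genes, Gad1, higher. DESeq2 called 5 of the CA1 and 5 of the interneuron genes, limma voom 4 and 4, and limma on mean log2(TPM+1) 0 and 0. Against CA1 alone the CA1 list had a median log2 fold change of -7.51, with 1 gene lower by edgeR. Against VIP alone the interneuron list had a median of -10.16, with 4 genes lower. All 8 CA1 markers were in under 10% of the DG nuclei, and the summed TPM of the list was 3.08 to 89.2 in DG and 610.2 to 1467 in CA1 mice. Of the interneuron list, Vip, Htr3a, Slc32a1, Calb2 and Pvalb were at 0 in all 3 DG mice, and Cck was the most detected, in 49 of 52 DG nuclei. The mossy cell markers Drd2 and Calb2 were at 0 in DG, but Drd2 was above 1 in 0 nuclei of every other type too. Csf2rb2 of that list was in 47 of 52 DG nuclei at levels inside those of the other types. Of the immature granule cell list, Sox4, Calb2 and Neurod4 were at 0 in all 3 DG mice, Sox11 was in 15 of 52 nuclei and Dcx in 7. Neurod4 was above 1 in 0 nuclei of every other type, and Sox4 only in 2 of 22 Sub and 2 of 39 VIP nuclei. The absence of Neurod4 and Sox4 from DG nuclei therefore says little. The 18 glial and vascular genes summed to 227.7 to 435.9 TPM in DG and 15.7 to 4092 in the other mice, and Slc1a3 was the most detected, in 32 of 52 DG nuclei.

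Against the mean edgeR called 0 of 4 CA2, 8 CA3, 5 subiculum, 3 mossy cell, 3 immature granule cell and 10 glial and vascular genes tested. The unadjusted p lay under 0.05 for 2, 2, 4, 1, 1 and 2 of them, in the same order. DESeq2 called 1, 1, 4, 1, 1 and 1, limma on mean log2(TPM+1) 1, 0, 0, 0, 0 and 0, and limma voom 2, 3, 1, 0, 0 and 3. The counts over all genes are those given with the receptor lists. Ntf3, a neurotrophin on the CA2 list, was in 26 of 52 DG nuclei, and the summed TPM of that list, 156.9 to 310.2, was above that of every other mouse, where it reached 129.2. In CA3 mice the CA3 list summed to 729.9 to 1315 TPM, against 26.7 to 138.6 in DG. The subiculum list summed to 41.8 to 81.2 in DG, and its member Fn1 was in 52 of 52 DG nuclei at 3.78, 3.79 and 3.95, inside the 2.67 to 7.04 of the others.

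The genes whose levels over the 23 means of mouse and type followed Prox1 most closely were Thsd7a (Pearson r = 0.90), Slc39a6 (0.88), Synpr (0.85), Prtg (0.81) and Spock3 (0.79), among 15397 genes compared. The means share libraries by type and Prox1 is high in both DG and most VIP mice, so these correlations are a description. Thsd7a had 3.79, 3.72 and 3.62 in DG and a VIP mean of 3.49. Synpr, a synaptic vesicle protein of mossy fibres, had 7.69, 8.26 and 9.63 and a VIP mean of 7.55.

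FOS+ nuclei could be set beside FOS- nuclei within 1h-3 alone, so the following values carry no test. Counts are of 19 nuclei in HC-6, 5 in HC-7, 27 FOS- in 1h-3 and 26 FOS+ in 1h-3. C1ql2 was above 1 in 24 of 27 FOS- and 7 of 26 FOS+ nuclei, with exact binomial 95% intervals of 70.8% to 97.6% and 11.6% to 47.8%, which cover counting error only, and in 11 of 19 and 5 of 5 in the HC mice. Bcl11b was in 13 FOS- and 3 FOS+ nuclei, Plk5 in 13 and 1, Calb1 in 24 and 15, Dsp in 5 and 1, and Sema5a in 25 and 15. Prox1 was in 24 and 25, Rfx3 in 26 and 26, and Pdyn in 6 and 12. FOS+ nuclei held a median of 9 of the 20 granule markers, against 13 in FOS- nuclei of the same mouse and 14 in each of HC-6 and HC-7. The median number of genes above 1 was 5197.5 in FOS+ nuclei and 6213 in FOS- nuclei of 1h-3, and its part in the lower marker counts was not tested.

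**Figure D3:**
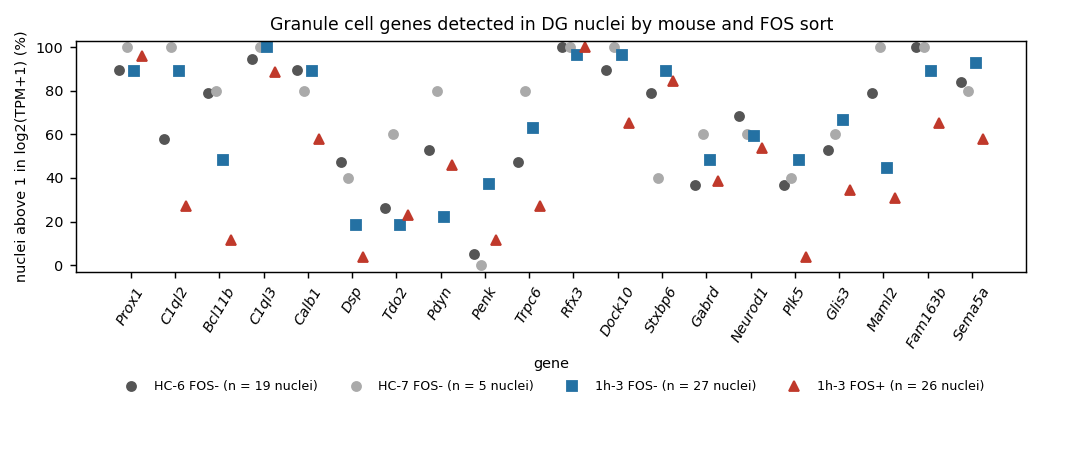
Share of DG nuclei (percent) with each granule cell marker above 1 in log2(TPM+1), by mouse and FOS sort, with points shifted sideways for legibility. FOS+ nuclei of 1h-3 lie lowest for C1ql2, Bcl11b and Plk5, and near the others for Prox1 and Rfx3.

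FOS protein chose the nuclei, so high activity genes in FOS+ nuclei follow the sort itself. Arc was above 1 in 26 of 26 FOS+ nuclei, with a mean of 9.75, and Inhba, an activin subunit, in 26 of 26 with a mean of 10.75 against 1.72 in FOS- nuclei. Homer1, a postsynaptic scaffold, had means of 8.16 and 2.08 in those groups, and Nptx2, a secreted pentraxin, 4.71 and 0.66. Bdnf had 9.62 and 3.55, beside 6.17 in HC-6 and 5.06 in HC-7, so the FOS- nuclei of 1h-3 held the lowest mean of the 4 groups. Snhg11 had 4.65 in FOS+ and 8.83 in FOS- nuclei, whereas Meg3 had 10.43 and 9.57. Gad1 had 5.99 in FOS+ nuclei and 3.47 in FOS- nuclei. Mfsd2a had 4.56 and 2.54.

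Markers that differ along or within the dentate gyrus were also counted together in single nuclei. Of all 79 nuclei, 17 held Lct, 16 Penk, 32 Pdyn, 19 Tdo2 and 17 Dsp. Penk and Pdyn met in 4 nuclei, Lct and Penk in 2, Lct and Pdyn in 6, Lct and Tdo2 in 6, Lct and Dsp in 5, and Tdo2 and Dsp in 8. At levels detected in a minority of nuclei, a missing gene cannot be told from a transcript that was not captured.

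DG nuclei from ARC+ FOS- sorts of the later experiment, 68 nuclei of 2 mice at 4 h and 59 nuclei of 4 mice at 5 h, carried other prefixes in their sample names. They are set beside the first set with no test, since time, sort and name prefix all differ. Prox1 had 4.09 to 5.56 over those 6 mice and Rfx3 6.69 to 8.86, ranges that hold the first set's values. C1ql2 had 1.61 to 5.26, in 65 of 127 nuclei, where the first set had 4.02 to 6.79. Bcl11b had 0.05 to 2.56 where it had 2.51 to 3.81. Ogn (at most 0.98), Dclk3 (0.35), Gdf10 (0.20), Cdhr1 (0.27) and Capn3 (2.06) lay below every mean of the first set. The ranges of Pdyn, Arsj, Mfsd2a and Plcg2 overlapped those of the first set. 2610203C20Rik was at most 0.12 and in 3 of 127 nuclei, Cntnap5c at most 0.26 and in 3, Sv2b at most 0.26 and in 2, and Elavl4 at most 1.12 and in 12. Snhg11 had 3.51 to 5.66, all below the first set's 5.98 to 8.83 and below the 12.05 to 13.48 of the other types. Meg3 had 9.19 to 11.12. Calb1 had 2.21 to 3.98 where the first set had 6.70 to 7.59, and Fam163b 1.45 to 4.11 where it had 6.88 to 8.41. Ntf3 had 0.00 to 1.12 against 3.05 to 4.28, and was in 10 of 127 nuclei.

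**Figure D4:**
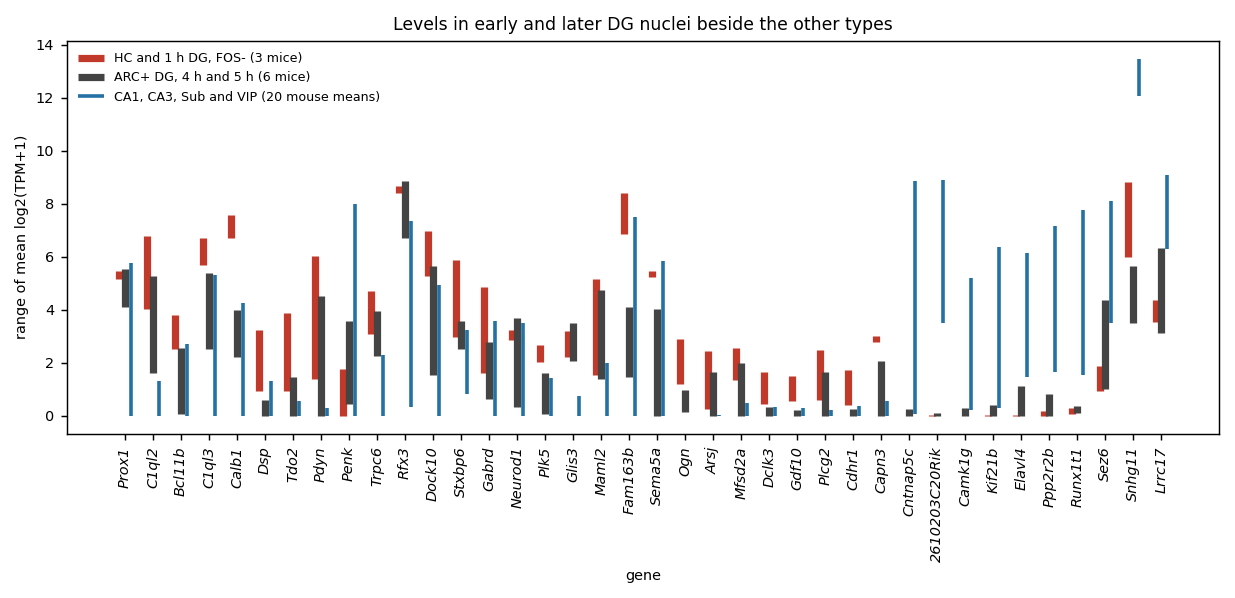
Range over mice of mean log2(TPM+1) for granule cell markers and the genes named against the mean, in HC and 1 h FOS- DG nuclei (red, 3 mice), in 4 h and 5 h ARC+ DG nuclei (dark grey, 6 mice) and over 20 means of CA1, CA3, Sub and VIP (blue). 2610203C20Rik stays at 0.12 or below in every DG mouse of both sets, and Calb1 is lower in the later set.

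DG nuclei held fewer detected genes than the pyramidal types by their means. Genes above 1 per nucleus averaged 6065 in 1h-3, 5702 in HC-6 and 5813 in HC-7, a mean of 5860 over the 3 mice, against 7006 over 6 CA1 mice, 8174 over 3 CA3 mice, 6885 over 5 Sub mice and 6040 over 6 VIP mice. All 3 DG mice lay below every CA1, CA3 and Sub mouse. In a two-sided exact permutation test over mice the difference from CA1 was -1146 (p = 0.0238, the smallest this design allows, adjusted over 4 types 0.0714), and from Sub -1025 (exact p = 0.0357, adjusted 0.0714). The difference from CA3 was -2314 (exact p = 0.1, which 3 against 3 mice cannot go below, adjusted 0.133) and from VIP -180 (exact p = 0.333). A second rule took any count above 0 as detection, after thinning every nucleus to 100000 counts. DG then averaged 4567 genes. The differences were -910 from CA1, -815 from Sub and -242 from VIP, each with an adjusted exact permutation p of 0.0476. From CA3 it was -1834 (adjusted exact permutation p = 0.1). The same rule without thinning gave -1160 from CA1, -910 from Sub and -2743 from CA3 (adjusted exact permutation p = 0.143 each). From VIP it gave 249 (adjusted 0.619), so rule and thinning both differ from the first values.

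**Figure D5:**
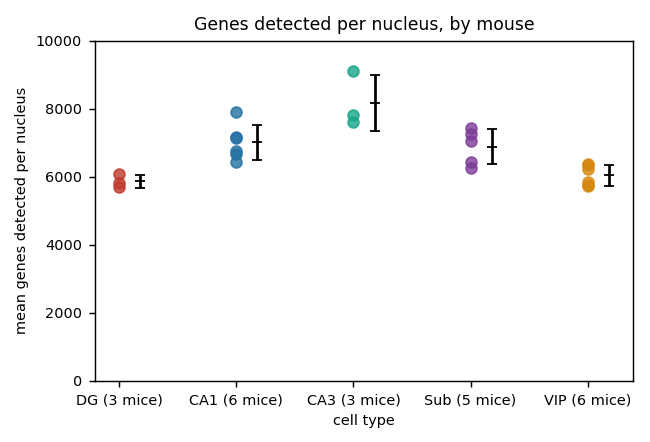
Mean number of genes above 1 in log2(TPM+1) per nucleus for each mouse (points) with the mean and SD over mice (bars), by cell type. The 3 DG mice lie between 5702 and 6065, below every CA1, CA3 and Sub mouse.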

How the data were processed

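Nuclei were sequenced by Smart-seq2 from sorted hippocampal nuclei of HC mice and mice 1 h after NE, and from later sorts. Per the study's methods, the authors trimmed reads and ran RSEM with Bowtie on mm10, with tool versions not given in the sources used here. The deposited expected counts per gene were estimated by the authors with RSEM and rounded to whole numbers here. The deposited log2 values are log2(TPM+1), made by the authors from RSEM's TPM. Genes without values, 30 among the counts and 23 among the log2 values, were left out. A second count table of the later sets was not used, and the log2 table gave the later levels.

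A mouse was defined by exposure, mouse number and the prefix of the sample name in the labels, since the labels do not say whether a number recurs across prefixes. FOS- nuclei with 4000 genes above 1, 100000 aligned reads and Arc at or below 2.5 were summed by mouse and type (at least 2 nuclei), for 65388830 summed counts in DG and 16095211 to 45498653 in the other types. Each nucleus had been sorted into its own well and no doublet caller was run. Sums of 5 types were fitted together in edgeR 4.0.16 (R 4.3.3) with TMM scaling, filterByExpr and the quasi-likelihood test, adjusted by Benjamini-Hochberg over 16709 genes at 0.05. Alternatives used DESeq2 1.42.0 and limma 3.58.1. The fit was tested on simulated data, and the common dispersion of the sums was 2.32. Genes detected per nucleus were compared by exact permutation over mice.

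Genes were named by rule: every granule cell marker, the 10 largest fold changes up and down against the mean of the types and the 4 up and down against each type among called genes whose mice did not overlap, up to 4 genes per other list, and the 5 genes most correlated with Prox1. Genes described beyond that rule, such as Malat1, Mirg, Slc17a7, Slc30a3, Slc32a1, Cck, Fn1 and the activity genes named, were chosen from the lists after their values were seen. The members and the lists were chosen with earlier results of these data known. Gene positions are from GENCODE on GRCm38, and promoters and miRNAs from RefSeq on GRCm38.p6.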

Additional observations from a re-analysis of the deposited data

Results flagged for a closer look

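In 15 of 55 groups of 4 to 6 mice of another type, the mean log2(TPM+1) of a granule cell marker was far above the rest in 1 mouse. In 10 of the 15 every other mouse was at 0, where the chance rate of about 1 group in 20 does not apply, so nothing is read from the number. HC-4a stood apart among CA1 mice for Prox1 (0.69), Dsp (1.31) and Sema5a (1.57), and among Sub mice for C1ql2 (0.81). The CA1 nucleus with 13 granule cell markers came from HC-4a, where it was 1 of 4 CA1 nuclei. It was the 1 CA1 nucleus with Prox1 above 1, at 2.75, and the mean of 0.69 equals that level spread over the 4 nuclei. As a CA1 nucleus it did not enter the Sub value of C1ql2. Its part in the Dsp and Sema5a values was not tested. Among CA1 mice 1h-2 stood apart for Tdo2 (0.23) and 1h-4a for Plk5 (1.41). Among Sub mice 1h-4a stood apart for Prox1 (0.047) and Sema5a (0.24). Among VIP mice HC-4b stood apart for C1ql3 (0.50), Tdo2 (0.43) and Glis3 (0.73), HC-4a for Trpc6 (2.31), HC-5 for Gabrd (0.27), and 1h-5 for Neurod1 (1.09) and Maml2 (0.49). Each of these 15 values lay below the mean level of that gene over DG mice.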

How the results depend on the processing

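Counts of called genes are given against the mean, CA1, CA3, Sub and VIP in that order, and were 131, 36, 12, 38 and 134 by edgeR. DESeq2 called 679, 508, 741, 992 and 1164. Without a filter on low counts there were 264 against the mean, 23 against CA1 and 24 against Sub. Sums of at least 5 nuclei gave 14 against CA1 and 20 against Sub, and sums of at least 1 nucleus 8, 5 and 16 against CA1, CA3 and Sub. Keeping FOS- nuclei with high Arc gave 207 against the mean, and groups by sort gate 16 against CA1 and 215 against VIP. HC mice alone gave 4, 3, 3, 3 and 5. Limma on mean log2(TPM+1) called 107, 220, 151 and 279 against the 4 types. Limma voom with the mouse as a replicate block, whose correlation was 0.018, called 2060, 556, 243, 699 and 1276. The cause was not tested. DESeq2 size factors in edgeR moved the median log2 fold change of all genes against the mean from 0.066 to 0.19.

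Leaving out 1 mouse at a time gave 81 to 142, 13 to 35, 6 to 14, 11 to 39 and 67 to 135 calls. Against the mean the lowest count was without 1h-10. Against CA1 it was 20 without 1h-10, 18 without 1h-4a, 22 without HC-3, 22 without 1h-3, 16 without HC-6 and 13 without HC-7. Against CA3 it was 7 without 1h-10 or HC-6 and 6 without HC-7. Against Sub it was 23, 22, 16, 21, 16, 14 and 11 without 1h-10, 1h-2, 1h-4a, HC-8, 1h-3, HC-6 and HC-7. Against VIP it was 67, 68, 76, 86 and 78 without 1h-3, HC-6, HC-7, 1h-4b and HC-5. Of the 131 main calls against the mean, between 65 (without 1h-10) and 124 (without 1h-5) were called again, and 73 without HC-7. Of these 131, 3 had the opposite sign without HC-7 and 1 without HC-6. Leaving out the CA1 nucleus with 13 granule cell markers, an alternative chosen after seeing the data, gave 139, 40, 13, 41 and 129. Of the genes named against the mean, 2610203C20Rik passed under all 28 alternatives, as did Rfx3, a classifier gene given as a description.

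The difference in genes detected ranged from -1262 to -963 against CA1, -2597 to -1846 against CA3, -1185 to -886 against Sub and -282 to -101 against VIP with 1 mouse left out. Thinned to 100000 counts, with any count above 0 taken as detection, it was -910, -815 and -242 against CA1, Sub and VIP, past the threshold. Against CA3 it was -1834, not past it. Without thinning, counting any expected count above 0 as detected turned the difference from VIP to 249 more genes in DG (exact permutation, adjusted p = 0.619).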
